A study of Mus musculus with 12 samples.

Results

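The genes described here are 9 transcription factors of adipocyte differentiation: Pparg, Cebpa, Cebpb, Cebpd, Ebf1, Klf15, Rxra, Rxrg and Nr1h3. They were taken by gene symbol for their known role, with earlier results of these data known, and are 9 of the 47729 genes in the deposited files. All 9 were found, each under 1 identifier, and all 9 were among the 19154 genes that passed the filter on low counts. They were measured by RNA-seq in surgically denervated fat of male wild type C57BL/6J mice, aged 6 to 10 weeks and kept on a standard low-fat diet. Brown fat from between the shoulder blades (BAT) was set beside 3 white depots, epididymal (EWAT), inguinal (IWAT) and retroperitoneal (RWAT), with 3 libraries from each of the 4. All 12 libraries come from denervated fat, and since innervated fat is not analysed here the values compare depots and say nothing of what denervation did. Whether a depot's 3 libraries stem from different animals is not in the labels, so the p-values reflect only how far these samples spread, and that spread may be technical.

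Adipocyte differentiation runs through a cascade of transcription factors. C/EBPβ and C/EBPδ, encoded by Cebpb and Cebpd, act early, and Ebf1 and Klf15 support the induction of the later factors. PPARγ (Pparg) and C/EBPα (Cebpa) then induce each other and the genes of lipid storage, and remain expressed in mature fat cells. PPARγ binds DNA together with a retinoid X receptor, such as RXRα (Rxra) or RXRγ (Rxrg). LXRα (Nr1h3), a receptor for oxysterols, uses the same partners.

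The libraries held 15699912 to 25633413 counts, and levels between libraries are given as CPM, the count relative to the library total, scaled by TMM, a method that sets most genes equal. Lhx8, a marker of brown fat, set BAT apart, with 5.90 to 14.3 CPM there and at most 4.15 CPM elsewhere. The lowest BAT library of Zic1, another such marker, was level with the highest of RWAT. Ucp1, the uncoupling protein of brown fat, ran from 32.2 to 2962 CPM in BAT and from 21.5 to 130 CPM in IWAT, so these depots overlapped. Wt1, a gene of the mesothelium that lines the abdominal cavity, held 20.6 to 38.8 CPM in EWAT and at most 0.157 CPM in BAT and IWAT. Markers of other tissues varied between libraries of a depot. The 12 skeletal muscle markers summed to 2184 to 18900 CPM in the BAT libraries and to 15800 CPM in RWAT replicate 3, against at most 91.9 CPM in the 8 other libraries. The 8 markers of epididymal epithelium summed to 1370 CPM in EWAT replicate 1 and to at most 15.03 CPM elsewhere. The 12 macrophage markers summed to 5946 to 8194 CPM in EWAT, 1071 to 5601 CPM in BAT, 1795 to 6021 CPM in IWAT and 1981 to 5559 CPM in RWAT. TMM factors ran from 0.615 in BAT replicate 1 to 1.23 in EWAT replicate 3, and without TMM the median log2 fold change of all genes moved by -0.52 for BAT against EWAT. The members' differences below are therefore relative to this scaling.

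Upstream sequences of 8 of the 9 members were found among RefSeq promoters on GRCm38.p6, with 14 transcription starts in all. There was no entry for Cebpd. The windows below are the 250 bases before 1 start each of Pparg, Klf15, Rxra and Rxrg, 4 genes whose levels varied together over the libraries. They were picked because they hold matches to TTGCNNAA, AGGTCA or CACGTG, letters explained next, and overlap no exon. The letters searched on both strands were TTGCNNAA for C/EBP factors, AGGTCA for a nuclear receptor element, AGGTCANAGGTCA for a direct repeat of that element, CACGTG for an E-box, GGGCGG for a GC box, CACCC for a CACCC box and CCCNNGGG for EBF factors. Capitals mark matches to TTGCNNAA, AGGTCA and CACGTG or their reverse complements. The Pparg window lies on the + strand at chr6:115421816-115422065, inside the gene and before listed start number 3.
Pparg: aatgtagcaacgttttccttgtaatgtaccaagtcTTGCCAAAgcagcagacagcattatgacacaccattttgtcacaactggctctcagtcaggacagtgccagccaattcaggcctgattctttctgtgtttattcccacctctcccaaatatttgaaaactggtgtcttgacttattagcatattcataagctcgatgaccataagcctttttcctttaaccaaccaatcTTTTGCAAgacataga
It holds 2 matches to TTGCNNAA, at -215 to -208 and at -16 to -9 from the start, in 40.8% GC. Of 32851 RefSeq windows of this length 9.56% hold such a match. The Klf15 window lies just before that gene on the + strand, at chr6:90462326-90462575.
Klf15: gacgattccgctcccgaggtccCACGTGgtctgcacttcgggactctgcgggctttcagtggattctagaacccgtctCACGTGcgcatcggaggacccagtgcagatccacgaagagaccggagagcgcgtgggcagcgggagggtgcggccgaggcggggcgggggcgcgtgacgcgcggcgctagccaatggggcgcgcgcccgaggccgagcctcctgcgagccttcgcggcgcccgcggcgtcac
It holds 2 matches to CACGTG, at -228 to -223 and at -172 to -167, letters found in 6.02% of all windows. Both retinoid X receptor windows lie on the + strand before listed start number 2, at chr2:27709042-27709291 for Rxra and at chr1:167618015-167618264 for Rxrg.
Rxra: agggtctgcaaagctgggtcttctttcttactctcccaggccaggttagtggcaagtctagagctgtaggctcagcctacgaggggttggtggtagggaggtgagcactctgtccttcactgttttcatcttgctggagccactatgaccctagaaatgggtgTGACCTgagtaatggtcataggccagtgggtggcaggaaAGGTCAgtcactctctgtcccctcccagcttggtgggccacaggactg
Rxrg: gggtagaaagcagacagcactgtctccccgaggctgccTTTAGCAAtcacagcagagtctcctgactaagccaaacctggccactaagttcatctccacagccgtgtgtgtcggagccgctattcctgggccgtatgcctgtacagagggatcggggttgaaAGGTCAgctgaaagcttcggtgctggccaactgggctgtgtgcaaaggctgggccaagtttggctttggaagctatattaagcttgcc
The Rxra window holds 2 matches to AGGTCA, and the Rxrg window holds 1 match to AGGTCA and 1 to TTGCNNAA. AGGTCA occurs in 14.0% of all windows. AGGTCANAGGTCA occurred in none of the members' 14 windows and in 0.0335% of all windows. Beyond these, GGGCGG, found in 32.7% of all windows, had 5 matches before Cebpb, and CCCNNGGG, found in 11.8%, had 1 there and none before the other matched members. CACCC occurred in 52.0% of all windows. Over the members' 14 windows, TTGCNNAA occurred in 2, AGGTCA in 4, CACGTG in 1, GGGCGG in 5, CACCC in 12 and CCCNNGGG in 1. No match to TTGCNNAA, AGGTCA or CACGTG lay before Cebpa, before either start of Nr1h3 or before start number 1 of Rxra or Rxrg, while starts 1 and 2 of Pparg held 1 AGGTCA each. Such matches describe the letters and were not tested for binding.

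No member was called by edgeR's quasi-likelihood test in any of the 9 comparisons, where a gene is called if its p, adjusted by Benjamini-Hochberg across the 19154 genes, is under 0.05. The highest levels of most members were found in BAT and IWAT, and the lowest in EWAT and in 2 of the 3 RWAT libraries. In bulk tissue, fewer cells of a type and less RNA per cell cannot be told apart. Few genes of any kind were called: 0.512% of all genes differed among the 4 depots in an F test, against 0 of 9 members. In that test 3 of the 9 members had an unadjusted p under 0.05, as did 3283 of the 19154 genes. DESeq2 called 3 members there, Ebf1, Rxrg and Nr1h3, and limma-voom none. The shares of all genes that these tools called are not given here, so their calls are not set against all genes.

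BAT against EWAT was the comparison with the most separation. Of all genes 0.783% were called and no member. An unadjusted p under 0.05 was found for 5 of the 9 members and for 5300 of the 19154 genes. All 9 fitted log2 fold changes were above 0, with a median of 1.55 against -0.08 over all genes. In 7 members, Pparg, Cebpa, Ebf1, Klf15, Rxra, Rxrg and Nr1h3, every BAT library lay above every EWAT library, while 36.9% of all genes had no overlap in either direction. The calls depended on the setting. DESeq2 called 5 members (Pparg, Ebf1, Klf15, Rxrg and Nr1h3), as did edgeR without RWAT replicate 1 and edgeR on the 6 libraries of these depots. limma-voom called none. The shares of all genes called under such other settings, in this and the other comparisons, are not given here. The members' calls under them are therefore not set against all genes. On the deposited TPM, a level per transcript length, and on CPM without TMM, the libraries of Cebpa, Ebf1 and Rxra overlapped between BAT and EWAT and those of Pparg, Klf15, Rxrg and Nr1h3 did not.

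IWAT against EWAT gave the same order of levels. No member was called, against 0.345% of all genes. An unadjusted p under 0.05 was found for 5 of the 9 members and for 3104 of the 19154 genes. The 9 log2 fold changes were again all above 0, with a median of 1.25 against -0.04 over all genes. IWAT and EWAT libraries did not overlap for Pparg, Ebf1, Klf15, Rxrg and Nr1h3, on all 3 scales, and 25% of all genes had no overlap. DESeq2 called Ebf1 and Rxrg, and limma-voom called no member. This comparison shares its EWAT libraries with the previous one.

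The other contrasts held smaller differences. BAT against the white mean called 0.0992% of genes and no member, with a median log2 fold change of 1.00 over the members. An unadjusted p under 0.05 was found for 4 members and for 3476 of the 19154 genes. IWAT against EWAT with RWAT, the other white depots averaged, called 0.141% of genes and no member, with a median of 1.13. In this contrast 4 members and 2207 of the 19154 genes had an unadjusted p under 0.05. Without RWAT replicate 1, edgeR called Nr1h3 in both of these contrasts. Between BAT and IWAT 0.0104% of genes and no member were called. No member had an unadjusted p under 0.05, against 737 of the 19154 genes. No member's libraries were apart, against 6.83% of all genes, and the members' median log2 fold change was 0.21. BAT against RWAT called 0.0574% of genes and no member. The unadjusted p was under 0.05 for 1 member, Nr1h3, and for 2844 of the 19154 genes, and no member's libraries were apart against 16.8% of all genes. Between IWAT and RWAT the percentage of genes called was 0. No member had an unadjusted p under 0.05, against 847 of the 19154 genes, and no member's libraries were apart against 6.68% of all genes. EWAT against RWAT called 0.0418% of genes and no member. Ebf1 alone of the members had an unadjusted p under 0.05 there, against 1732 of the 19154 genes. It was also alone in having no overlap, against 14.9% of all genes. DESeq2 called no member in BAT against the white mean, IWAT against EWAT with RWAT, BAT against IWAT, BAT against RWAT and IWAT against RWAT, and called 1, Ebf1, in EWAT against RWAT. limma-voom called none in any of these.

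**Figure D1:**
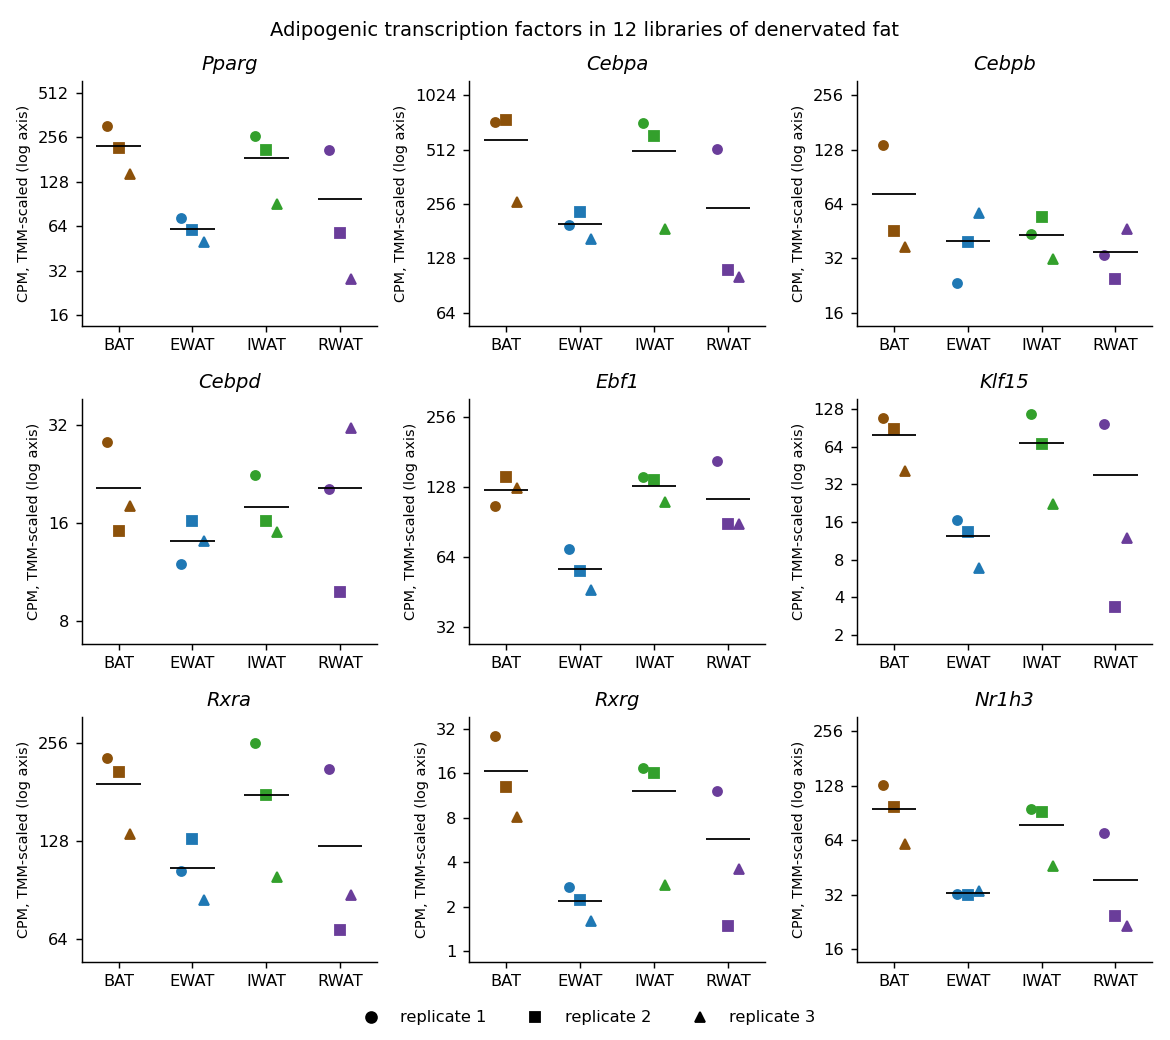
TMM-scaled CPM (log axis) of each of the 9 members in the 3 libraries of each depot; symbols mark the replicate number and horizontal lines the mean. The 3 EWAT points lie below all BAT points for 7 members, and RWAT replicate 1 lies far above the other RWAT libraries for Pparg, Cebpa and Klf15.

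Pparg (ENSMUSG00000000440, chromosome 6, 115360951 to 115490399 on GRCm38) encodes the nuclear receptor that drives fat cell formation. It held 306.5, 217 and 144 CPM in BAT replicates 1 to 3, and 72.9, 60.5 and 50.2 CPM in EWAT. Its levels were 260, 209 and 90.3 CPM in IWAT and 208, 57.6 and 28.1 CPM in RWAT. BAT and IWAT lay wholly above EWAT, and RWAT spanned both ends of the range, with replicate 1 near BAT and replicate 3 the lowest of all 12. The depot means were 61.2 ± 11.4 CPM in EWAT (SD, n = 3), 98.0 ± 96.7 CPM in RWAT, 186.4 ± 87.1 CPM in IWAT and 222.6 ± 81.3 CPM in BAT. The log2 fold change was 1.86 for BAT against EWAT (SE 0.66, adjusted p = 0.111) and 1.61 for IWAT against EWAT (SE 0.65, adjusted p = 0.271). Among the 3 other depots the log2 fold change was 0.26 for BAT against IWAT (SE 0.64, adjusted p = 0.998). It was 1.18 for BAT against RWAT (SE 0.65, adjusted p = 0.380) and 0.93 for IWAT against RWAT (SE 0.64, adjusted p = 0.871). None of these differences, with or without EWAT, was called.

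Cebpa (ENSMUSG00000034957, chromosome 7, 35119293 to 35121928), the partner of Pparg in mature fat cells, was the most abundant member in CPM. Its BAT libraries held 730.0, 749 and 264 CPM and its EWAT libraries 197, 232 and 165 CPM. IWAT held 724, 607 and 186 CPM, and RWAT 519, 110.0 and 101 CPM. IWAT replicate 3 lay within the EWAT range and RWAT replicates 2 and 3 lay below it. BAT and EWAT were the only depots whose libraries did not overlap, with 264 against 232 CPM at their nearest. The log2 fold change of BAT against EWAT was 1.55 (SE 0.70, adjusted p = 0.182). On the TPM scale the nearest BAT and EWAT values were 131 and 132, and the depots overlapped. A gene annotated on the opposite strand, Gm45091, overlaps a Cebpa exon.

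Cebpb (ENSMUSG00000056501, chromosome 2, 167688915 to 167690418) and Cebpd (ENSMUSG00000071637, chromosome 16, 15887286 to 15891031), the early factors of the cascade, followed no depot order. Cebpb held 136, 45.4 and 36.9 CPM in BAT and 23.4, 39.6 and 57.1 CPM in EWAT. It held 43.9, 53.9 and 32.0 CPM in IWAT and 33.4, 24.5 and 46.4 CPM in RWAT. BAT replicate 1 stood far above the 11 other libraries, and all depots overlapped. For BAT against the white mean the log2 fold change of Cebpb was 0.89 (SE 0.39, adjusted p = 0.262).

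Cebpd ran from 9.78 CPM in RWAT replicate 2 to 31.3 CPM in RWAT replicate 3, so its extremes lay in the same depot. The BAT libraries held 28.3, 15.1 and 18.0 CPM, EWAT 11.9, 16.2 and 14.1, IWAT 22.4, 16.2 and 15.04, and RWAT 20.2, 9.78 and 31.3 CPM. All depots overlapped. Its log2 fold change between BAT and RWAT was 0.00 (SE 0.38, adjusted p = 0.997), and that between EWAT and RWAT was -0.54 (SE 0.39, adjusted p = 0.752). RWAT replicate 3 and BAT replicate 1, the libraries with the most Cebpd, also carried 15800 and 18900 CPM of the 12 muscle markers. BAT replicate 2 carried 13250 CPM of these markers, but its 15.1 CPM of Cebpd lay below the median of 16.2 CPM. BAT replicate 3 carried 2184 CPM of them with 18.0 CPM of Cebpd. The part of muscle RNA in the Cebpd level was not tested. Depot accounted for 16.3% of the variance of log2 CPM in Cebpd and 25.9% in Cebpb, against a median of 38.2% over all genes tested.

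Exons of both genes overlap a gene on the other strand, Tmem189 for Cebpb and Spidr for Cebpd. Whether reads were counted by strand is not given in the sources used here. Without strand, reads from a stretch that both genes share cannot be told apart. The deposited posterior standard deviation of the count was at most 0.815% of it for Cebpb and 0 for Cebpd in every library. The part of the partners' reads in either count was not tested. Tmem189 held 42.7 to 82.3 CPM and Spidr 12.2 to 23.9 CPM. Over the 12 libraries Pearson's r of log2 CPM was -0.13 between Cebpb and Tmem189 (permutation p = 0.693; Spearman's rho -0.17, p = 0.603). It was -0.30 between Cebpd and Spidr (permutation p = 0.338; rho -0.22, p = 0.498). Without the 2 libraries farthest from the median of the member these r were 0.0995 and -0.51.

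Ebf1 (ENSMUSG00000057098, chromosome 11, 44617317 to 45008091), an early B cell factor that also acts upstream of Pparg and Cebpa, was the member most closely tied to depot. It held 107, 142 and 127 CPM in BAT and 69.4, 55.6 and 46.5 CPM in EWAT. IWAT held 143, 138 and 110 CPM, and RWAT 166, 89.1 and 88.7 CPM. All 9 libraries of the other depots lay above all 3 EWAT libraries, and the 3 other depots overlapped each other. The means were 130 ± 17.5 CPM in IWAT (SD, n = 3), 125 ± 17.7 in BAT, 115 ± 44.5 in RWAT and 57.2 ± 11.5 in EWAT. The log2 fold change was 1.13 for BAT against EWAT (SE 0.27, adjusted p = 0.0638), 1.19 for IWAT against EWAT (SE 0.27, adjusted p = 0.0803) and -1.003 for EWAT against RWAT (SE 0.27, adjusted p = 0.242). Depot accounted for 76.3% of its variance. BAT against EWAT was called under 6 of 20 alternatives, with adjusted p from 0.00191 with DESeq2 to 0.203 without BAT replicate 1. Among those 6 were the fits without EWAT replicate 1, the library with the epididymal epithelium markers (adjusted p = 0.0426), without BAT replicate 3 (0.0497) and without RWAT replicate 1 (0.0363). IWAT against EWAT was called for Ebf1 with DESeq2 (adjusted p = 0.00227), without EWAT replicate 1 (0.0379) and without RWAT replicate 1 (0.0389), in a range up to 0.323 over the alternatives. Without TMM the BAT against EWAT log2 fold change was 0.63 (adjusted p = 0.134), and BAT replicate 1 held 33.4 TPM, inside the EWAT range of 30.1 to 37.5 TPM.

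Ebf1 is also a defining factor of B cells. The 10 lymphocyte markers were low in every depot, with summed levels of 4.80 to 15.3 CPM in BAT, 16.3 to 28.8 CPM in EWAT, 10.9 to 30.8 CPM in IWAT and 9.77 to 12.4 CPM in RWAT. EWAT and IWAT overlapped in this sum and did not overlap in Ebf1. BAT and RWAT lay wholly below EWAT in this sum and wholly above it in Ebf1. The part of B cells in the Ebf1 level was not tested.

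Klf15 (ENSMUSG00000030087, chromosome 6, 90462576 to 90475238), a Krüppel-like factor induced during differentiation that raises the glucose transporter gene Slc2a4, had the widest range. It held 108, 88.9 and 41.2 CPM in BAT and 16.7, 13.3 and 6.85 CPM in EWAT. IWAT held 117, 67.3 and 22.2 CPM, and RWAT 97.6, 3.33 and 11.9 CPM. The highest library exceeded the lowest 35.1-fold, and within RWAT alone the span was 29.3-fold. BAT and IWAT were each wholly above EWAT, and RWAT covered all of the EWAT range. The log2 fold change of BAT against EWAT was 2.69 (SE 1.05, adjusted p = 0.138) and that of IWAT against EWAT 2.49 (SE 1.04, adjusted p = 0.282).

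The retinoid X receptors differed in level and in range. Rxra (ENSMUSG00000015846, chromosome 2, 27676440 to 27762957) held 229.5, 209 and 135 CPM in BAT and 104, 129.5 and 84.4 CPM in EWAT. It held 256, 177 and 99.2 CPM in IWAT and 214, 68.1 and 87.4 CPM in RWAT. BAT stood just above EWAT, with 135 against 129.5 CPM at the nearest, and the log2 fold change was 0.85 (SE 0.46, adjusted p = 0.242). Without TMM it was 0.28 (adjusted p = 0.526). Rxrg (ENSMUSG00000015843, chromosome 1, 167598384 to 167639623) was the least abundant member, at 28.5, 12.9 and 8.07 CPM in BAT and 2.74, 2.23 and 1.60 CPM in EWAT. IWAT held 17.3, 16.1 and 2.82 CPM of Rxrg, and RWAT 12.1, 1.49 and 3.59 CPM. BAT and IWAT lay above EWAT in every library, IWAT replicate 3 by little. The log2 fold change of Rxrg was 2.91 for BAT against EWAT (SE 0.86, adjusted p = 0.0816) and 2.46 for IWAT against EWAT (SE 0.85, adjusted p = 0.215).

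Nr1h3 (ENSMUSG00000002108, chromosome 2, 91184061 to 91202834) encodes LXRα, which turns on genes of cholesterol export and fatty acid synthesis. It held 129, 97.7 and 60.7 CPM in BAT and 32.3, 31.9 and 33.7 CPM in EWAT. IWAT held 95.0, 92.0 and 46.2 CPM, and RWAT 69.8, 24.3 and 21.5 CPM. EWAT was uniform, with a mean of 32.6 ± 0.95 CPM (SD, n = 3), and lay below every BAT and IWAT library but above 2 of the RWAT libraries. The log2 fold change was 1.55 for BAT against EWAT (SE 0.47, adjusted p = 0.0833) and 1.25 for IWAT against EWAT (SE 0.46, adjusted p = 0.241). Against the white mean BAT had 1.05 (SE 0.35, adjusted p = 0.185). Without RWAT replicate 1 this last contrast passed (adjusted p = 0.0473, within a range of 0.0473 to 0.885 over the alternatives).

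**Figure D2:**
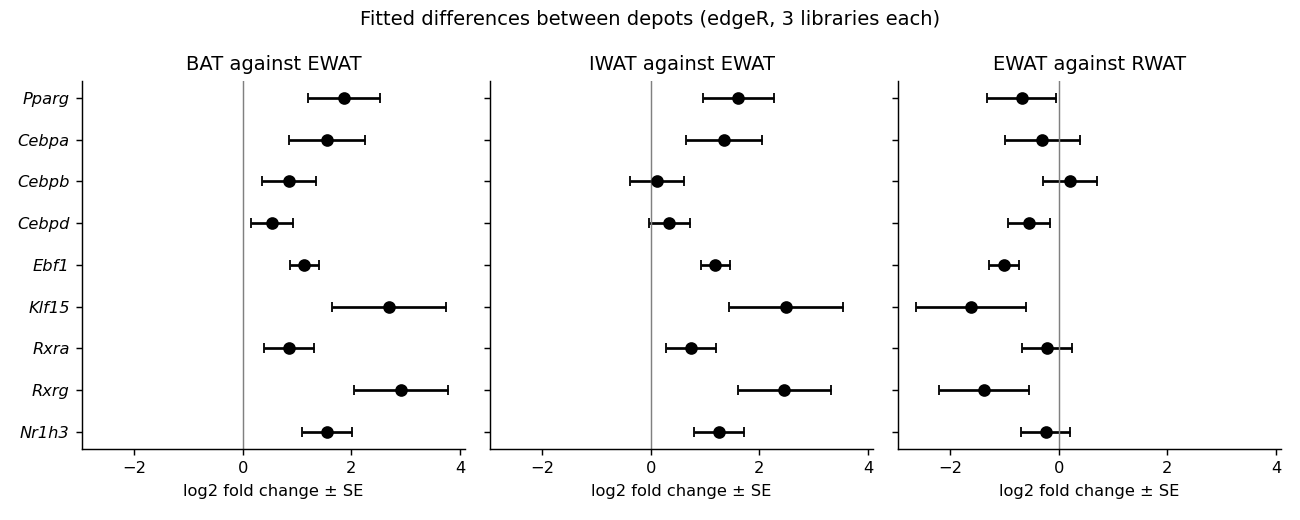
Fitted log2 fold change of each member with its standard error in 3 of the comparisons, all of which use the EWAT libraries. The 9 estimates lie above 0 against EWAT in BAT and in IWAT, and 8 of 9 lie below 0 for EWAT against RWAT.

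RWAT replicate 1 was apart from the other RWAT libraries. For EWAT against RWAT, leaving it out turned the log2 fold change from -0.68 to 0.51 for Pparg, from -0.30 to 0.90 for Cebpa, from -1.61 to 0.69 for Klf15, from -0.22 to 0.44 for Rxra and from -0.24 to 0.50 for Nr1h3. None of these values passed the test. The 22 adipocyte target genes had a mean of 10.11 log2 CPM in RWAT replicate 1 and of 7.28 and 7.001 in the others, and the macrophage markers summed to 1981 CPM against 5559 and 5150 CPM.

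Compared per transcript length, in TPM, Pparg and Cebpa led. The median over the 12 libraries was 142 TPM for Pparg, 131 for Cebpa, 68.9 for Nr1h3, 53.2 for Ebf1, 51.6 for Rxra, 35.5 for Cebpb, 20.1 for Klf15, 19.3 for Cebpd and 4.88 for Rxrg. Pparg and Cebpa exceeded each other in turn, with Pparg to Cebpa ratios of 0.512 to 1.19. Rxra was the main partner receptor by level in every library. Rxrb, a retinoid X receptor gene that is not a member, held 15.99 to 25.98 TPM, between Rxrg and Rxra in every library.

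The ratio of the partner receptors was apart between some depots and also varied within them. Rxra exceeded Rxrg 4.06 to 8.13-fold in BAT, 18.0 to 26.0-fold in EWAT, 5.19 to 17.4-fold in IWAT and 8.76 to 21.9-fold in RWAT. BAT overlapped neither EWAT nor RWAT in this ratio, with 8.13 against 8.76 at the nearest to RWAT. IWAT and EWAT did not overlap either, with 17.4 against 18.0 at the nearest. BAT overlapped IWAT, and RWAT overlapped both IWAT and EWAT. Rxrg held 52, 52 and 32.04 counts in EWAT replicates 1 to 3, so the ratios there rest on few reads. Pparg exceeded Rxra 2.77 to 3.35-fold in BAT, 1.29 to 2.00-fold in EWAT and 2.51 to 3.28-fold in IWAT, whereas in RWAT the ratio ran from 0.799 to 2.67. In this ratio too BAT lay above RWAT, with 2.77 against 2.67 at the nearest. RWAT replicate 3 alone had less Pparg than Rxra in TPM. These ratios do not depend on the scaling between libraries, were chosen after the levels were seen and were not tested.

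**Figure D3:**
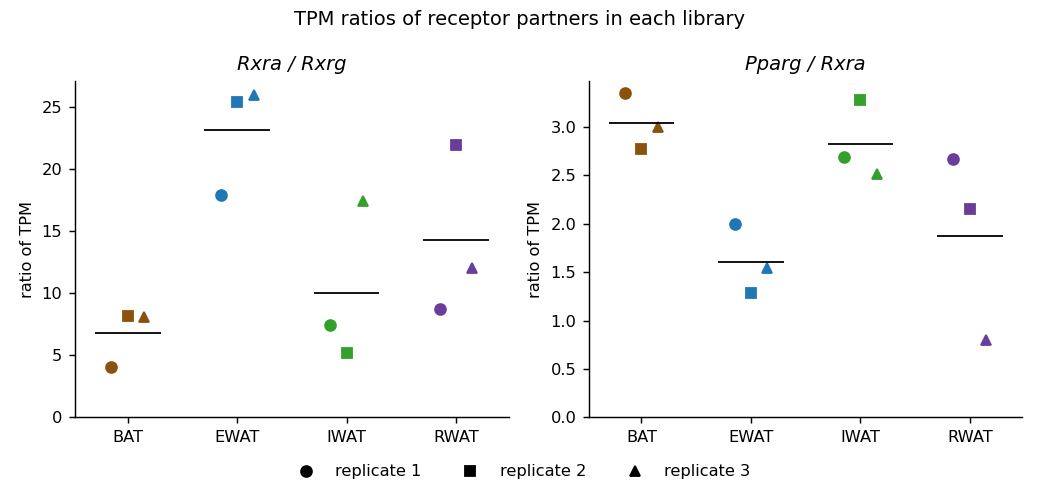
Ratio of TPM of Rxra to Rxrg and of Pparg to Rxra in each library, with the depot mean as a line. The Rxra to Rxrg ratio lies between 4.06 and 8.13 in BAT and between 18.0 and 26.0 in EWAT, and the Pparg to Rxra ratio is lower in every EWAT library than in every BAT library.

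Across the 12 libraries, 6 members varied together. Pparg, Cebpa, Klf15, Rxra, Rxrg and Nr1h3, grouped here after the values were seen, had their 5 highest libraries in common: BAT replicates 1 and 2, IWAT replicates 1 and 2 and RWAT replicate 1. Among these 6, Pearson's r of log2 CPM was 0.896 to 0.971 over their 15 pairs and Spearman's rho 0.825 to 0.972. Adjusted over 63 relations, permutation p-values were at most 0.00142 for r and 0.00521 for rho. The permutations shuffled libraries across depots, so a depot pattern that 2 genes share also enters these p-values. No p was computed within depots. Without the 2 libraries farthest from the median r was 0.882 to 0.989, and within depots, over deviations from the depot mean, 0.802 to 0.965. The same libraries, with their depth and scaling, enter every pair. Many other genes varied as closely with these members: among 9745 named genes ranked by r, Nr1h3 was number 36 in likeness to Pparg, Cebpa number 243, Rxra number 800 and Klf15 number 813, and Pparg was number 1248 in likeness to Rxrg.

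The other 3 members joined less closely. Ebf1 had r of 0.64 to 0.768 with the 6 (adjusted permutation p at most 0.0456). Cebpb had r of 0.401 to 0.576 with them and Cebpd 0.227 to 0.58, with no adjusted permutation p of r under 0.05 among these 12 pairs. By Spearman's rho 1 of them passed, Cebpd with Rxrg (rho 0.72, adjusted permutation p = 0.0215). Between Cebpb and Cebpd r was 0.639. Whether these correlations differ from those of the 6 was not tested.

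**Figure D4:**
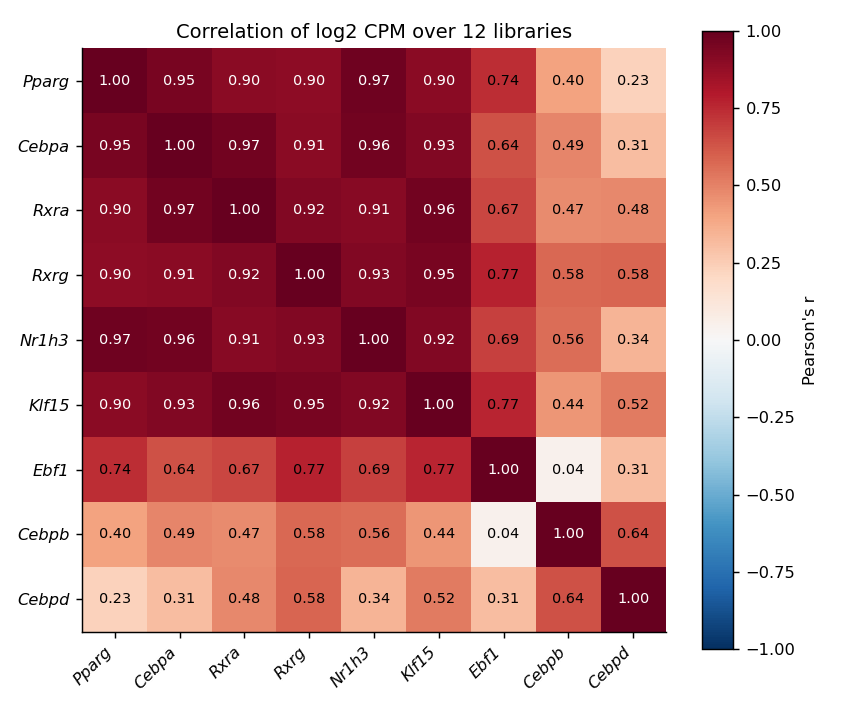
Pearson's r of TMM-scaled log2 CPM between each pair of members over the 12 libraries. The 6 members at the top left have r of 0.896 to 0.971, and the columns of Cebpb and Cebpd hold lower values, down to 0.0442 between Cebpb and Ebf1.

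The level of the 6 followed that of adipocyte genes. The mean log2 CPM of 22 adipocyte target genes, known targets of PPARγ and C/EBPα such as Fabp4, had r of 0.987 with Cebpa, 0.978 with Pparg, 0.971 with Nr1h3, 0.97 with Rxra, 0.953 with Klf15 and 0.929 with Rxrg. For these 6, rho was 0.86 to 0.972, the adjusted permutation p of r at most 0.000512, and r 0.901 to 0.982 without the 2 farthest libraries and 0.90 to 0.985 within depots. Ebf1 had r of 0.718 (adjusted permutation p = 0.0185; rho 0.755), Cebpb 0.447 (0.185; rho 0.266) and Cebpd 0.338 (0.335; rho 0.434). The median r over all genes tested was -0.15. On CPM without TMM the r of the 6 was 0.888 to 0.977, while that of Ebf1 was 0.363 (permutation p = 0.243), that of Cebpb -0.0315 and that of Cebpd -0.299.

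**Figure D5:**
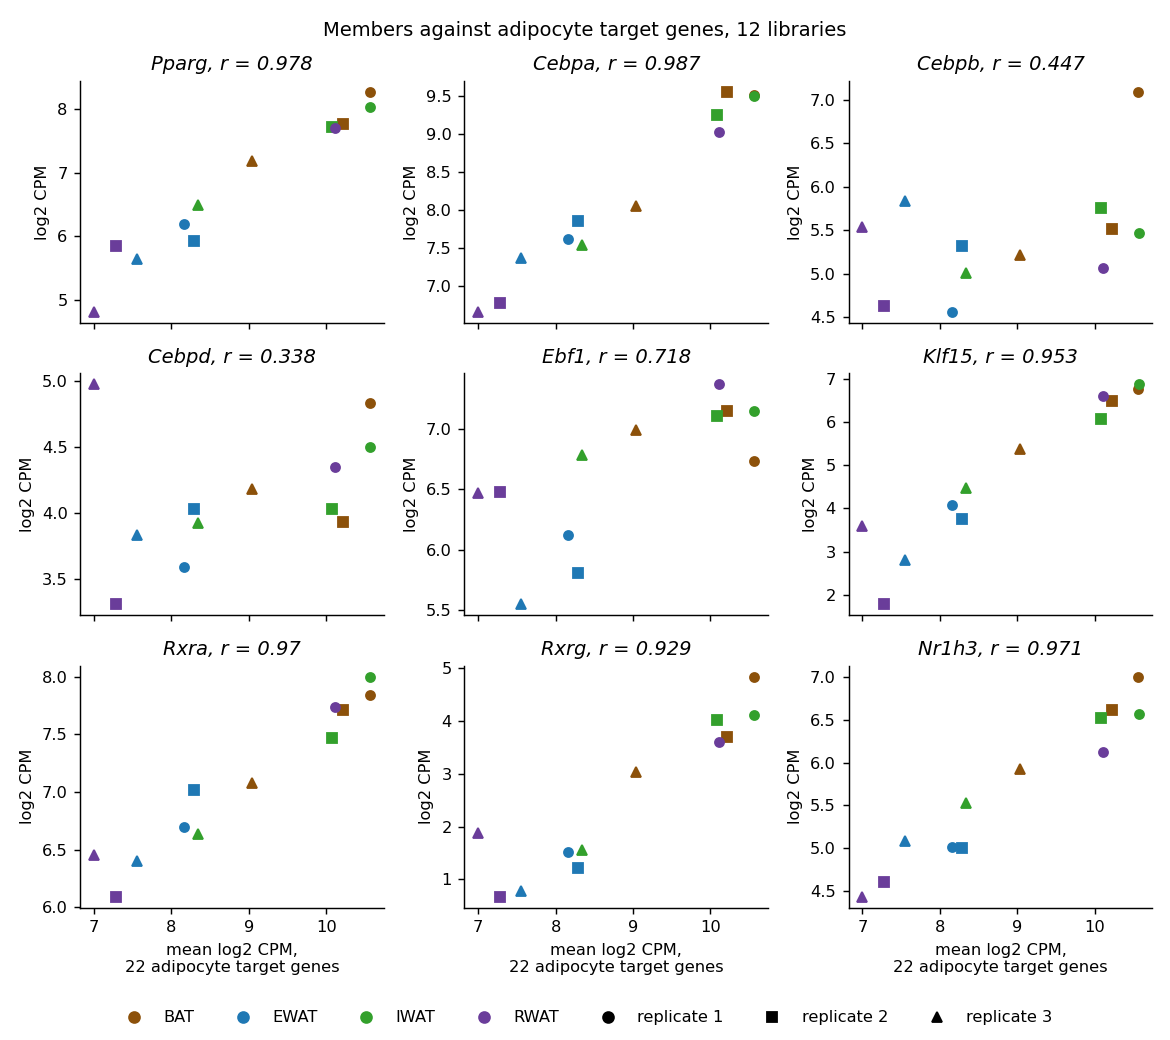
TMM-scaled log2 CPM of each member (vertical axes) against the mean log2 CPM of 22 adipocyte target genes (horizontal axes) in the 12 libraries, with Pearson's r above each panel. Pparg and Cebpa follow the target genes closely (r of 0.978 and 0.987), and Cebpd does not (r of 0.338).

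Macrophage RNA moved the opposite way. The mean log2 CPM of the 12 macrophage markers had r of -0.827 to -0.884 with the 6 (rho -0.741 to -0.888, adjusted permutation p of r at most 0.00266), -0.777 to -0.876 within depots and -0.738 to -0.853 without the 2 farthest libraries. For Ebf1 r was -0.684 (adjusted permutation p = 0.0277; rho -0.755), for Cebpb -0.544 (0.0973) and for Cebpd -0.488 (0.153). The Ebf1 value depended on the scaling and was -0.199 without TMM (permutation p = 0.532). None of the 12 markers was at 0 in any library. The part of macrophage RNA in the members' levels was not tested. With the 12 muscle markers no member had an adjusted permutation p under 0.05, and r ran from 0.146 for Pparg to 0.542 for Cebpd.

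Measured against 6 adipocyte markers (Adipoq, Fabp4, Plin1, Cidec, Pnpla2 and Lipe), the range of some members narrowed. Their mean spanned 3.36 on the log2 scale over the 12 libraries. After subtracting it, the log2 span was 0.768 in place of 2.89 for Cebpa, 1.26 in place of 3.45 for Pparg, 1.39 in place of 2.58 for Nr1h3, 2.08 in place of 5.09 for Klf15 and 2.14 in place of 4.17 for Rxrg. It was wider than before for Rxra (2.05 in place of 1.91), Ebf1 (3.05 in place of 1.83), Cebpb (3.44 in place of 2.53) and Cebpd (4.26 in place of 1.67). Per adipocyte marker, Cebpa therefore varied least of the 9.

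The genes most like each member came from 9745 named genes with a mean log2 CPM of at least 3, by Pearson's r of log2 CPM over the 12 libraries, and are given as a description with no test. For Pparg these were Aqp7 (r = 0.996), Pex13 (0.986) and Fbxw2 (0.986). Aqp7 is the glycerol channel of fat cells. For Cebpa they were Abhd14b (0.993), Tmem120a (0.993) and Bscl2 (0.992), the last encoding seipin of the lipid droplet. Among those for Klf15 were Thrsp (0.991), a regulator of lipogenesis, and Slc2a4 (0.984), the insulin-responsive glucose transporter. Rxra was most like Tdrp (0.989), Crebl2 (0.989) and Lpin1 (0.988), Rxrg like Hint3 (0.989), Cyb5d2 (0.986) and Aldh4a1 (0.986), and Nr1h3 like Dhrs7b (0.989), Pex13 (0.989) and Pex3 (0.984), of which Pex3 and Pex13 serve peroxisome assembly. The likeness was lower for Ebf1, to Nova1 (0.949), Cd209f (0.945) and Tvp23b (0.94), for Cebpb, to Phlpp1 (0.928), Rab24 (0.924) and Tmem160 (0.912), and for Cebpd, to Gtpbp6 (0.864), Clip1 (0.847) and Exoc7 (0.844).

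Among close relatives of the members, the early B cell factors held the calls. Of 21 family relatives 19 passed the filter. In the F test, which called 0.512% of all genes, 1 of them was called, Ebf2, a factor of brown and beige preadipocytes (adjusted p = 0.0421). Ebf2 held 65.8, 66.3 and 43.7 CPM in BAT, 17.5, 11.99 and 12.1 CPM in EWAT, 52.0, 62.8 and 33.7 CPM in IWAT and 45.1, 30.3 and 35.8 CPM in RWAT. All 9 libraries of the other depots lay above EWAT, as for Ebf1. Its level rose from EWAT to BAT by 2.08 on the log2 scale (SE 0.29, adjusted p = 0.0285) and to IWAT by 1.84 (SE 0.28, adjusted p = 0.0318). Ebf3, named here after its values were seen, held 4.80 to 8.55 CPM in EWAT and 23.0 to 40.2 CPM in BAT, a rise of 2.36 (SE 0.45, adjusted p = 0.0485). Ebf4 was at most 0.45 CPM in any library and did not pass the filter. Among the relatives 2 of 19 were called higher in BAT than in EWAT and none lower, against 0.783% of all genes, with a median log2 fold change of 0.21. Whether relatives and members differ was not tested, and Ebf1 (adjusted p = 0.0638) and Ebf3 lie close on either side of the threshold.

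Other regulators from the fixed lists were read beside the members. None of the 18 other adipogenic regulators was called in the F test or between BAT and EWAT. Srebf1, a regulator of lipid synthesis and the most abundant of them, averaged 533 ± 271 CPM in BAT (SD, n = 3) and 116 ± 24.4 in EWAT (log2 fold change 2.20, SE 0.76, adjusted p = 0.107). None of the 15 inhibitors of adipogenesis was called in these tests. Foxo1 led them by level, with 80.1 ± 27.3 CPM in BAT and 36.2 ± 14.0 in EWAT (adjusted p = 0.261). Of the 15 nuclear receptor coregulators 1 was called between BAT and EWAT: Ppargc1a, a coactivator of mitochondrial genes named here after its values were seen, rose by 4.09 (SE 0.76, adjusted p = 0.0473), from 1.17 ± 0.49 to 20.2 ± 9.12 CPM. Ncoa4, the most abundant coregulator, differed by 0.32 (SE 0.27, adjusted p = 0.434).

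Target genes of PPARγ and C/EBPα had differences of similar size to those of the members, and none was called. For the 22 adipocyte target genes the median log2 fold change was 1.90 for BAT against EWAT, with 22 above 0, and 1.83 for IWAT against EWAT, with 21 above 0. No target gene was called in either comparison, while 13 and 10 had an unadjusted p under 0.05. Over all 19154 genes these numbers were 5300 and 3104. Fabp4, a fatty acid binding protein, averaged 6206 ± 2119 CPM in BAT and 1972 ± 269 in EWAT (log2 fold change 1.65, SE 0.68, adjusted p = 0.152). The 12 target genes of LXR had a median of -0.16 for BAT against EWAT, with 6 above 0, and none was called. Nr1h3 itself had 1.55. Over the 12 libraries the mean log2 CPM of these targets had r of 0.615 with Nr1h3, and 0.368 within depots. The median r over all genes tested was -0.047, and the r with Nr1h3 was not tested. Scd1, a desaturase and the most abundant LXR target, averaged 40260 ± 24730 CPM in BAT and 4550 ± 1643 in EWAT (log2 fold change 3.15, SE 1.32, adjusted p = 0.157).

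Markers of other cells that differ between BAT and EWAT are given for the same contrast. The 9 mesothelial markers had 7 called lower in BAT, 7 called lower in IWAT than in EWAT, and 8 called in the F test. Wt1 differed by -10.09 on the log2 scale (SE 1.22, adjusted p = 0.0121) and Upk1b by -9.42 (SE 1.32, adjusted p = 0.031), both near 0 in BAT, so these fitted sizes depend on the prior count. Krt19 differed by -4.79 (SE 0.77, adjusted p = 0.0343). Of 8 endothelial markers 1, Tek, was called, higher by 1.31 (SE 0.19, adjusted p = 0.0323). Of the 10 lymphocyte markers 1 was called, lower in BAT, and all 10 had log2 fold changes below 0, with a median of -1.12. None of the 12 macrophage, 12 skeletal muscle, 10 progenitor and fibroblast or 8 Schwann cell markers was called, and of the 8 epididymal epithelium markers 2 passed the filter and none was called. The muscle markers nonetheless had a median log2 fold change of 9.72 for BAT against EWAT and the macrophage markers one of -1.49. The part of these cells in the members' levels was not tested.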

How the data were processed

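RNA was measured in 12 libraries, 3 from each of 4 denervated fat depots, as rRNA-depleted total RNA sequenced in single reads of 75 bases. The submitters' processing notes name Trimmomatic 0.36, RSEM 1.3.0, DESeq2 1.10.1 and the build GRCm38.p4. For annotation and strand setting nothing is stated there. Per the file headers, the authors deposited RSEM expected counts, TPM and the posterior standard deviation of each count, per gene and library.

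Expected counts were rounded. Genes were kept with filterByExpr, scaled by TMM and tested in 1 fit of all 12 libraries with edgeR 4.0.16 (quasi-likelihood test, R 4.3.3), with Benjamini-Hochberg adjustment over the 19154 genes tested and a threshold of 0.05. The SE is the log2 fold change divided by the root of F, and log2 CPM used a prior count of 2. The fit was tested on simulated data. DESeq2 1.42.0, limma-voom (limma 3.58.1), other scalings and filters, a replicate block and leaving out each library were alternatives. CPM without TMM for correlations and overlaps, and TPM for overlaps, were added after seeing the data. Permutation tests were two-sided with 100000 resamples, and the smallest p they can give is 1.0e-05. They shuffled all 12 libraries without regard to depot. Library totals were 15699912 to 25633413 counts, and the members held from 32.04 (Rxrg) to 14530 (Cebpa) counts in a library.

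All 9 members are named whatever their values. From each other list the genes named are those called in the F test (for more than 4, the 2 highest and 2 lowest by BAT against white), or else the most abundant gene. The members and lists were chosen with earlier results of these data known. A few genes that these rules or lists take are not reported here.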

Additional observations from a re-analysis of the deposited data

How the results depend on the processing

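Over 20 alternatives, 1593 values of single members were recomputed: 1512 kept their direction and side of the threshold, 35 newly passed it, 46 changed direction and none that was called did so. DESeq2 called 3 members among the 4 depots, 5 for BAT against EWAT, 2 for IWAT against EWAT and 1 for EWAT against RWAT. The fit of only 2 depots called 5 for BAT against EWAT. Leaving out 1 library gave 0 to 2 called among the depots, 0 to 5 for BAT against EWAT (5 without RWAT replicate 1, 2 without BAT replicate 3, 1 without EWAT replicate 1), and 0 to 1 for BAT against the white mean, IWAT against EWAT with RWAT, and IWAT against EWAT. Members without overlap between BAT and EWAT numbered 4 on CPM without TMM and 4 on TPM. The share of all genes called under these alternatives, the replicate block below included, is not given here. The cause was not tested for any of these.

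The labels do not say what a replicate number marks, and the values do not settle whether the numbers pair the samples: of 18 same-numbered pairs 10 had a correlation of deviations over 0.1, in a range of -0.35 to 0.68. With the replicate block 5 members were called for BAT against EWAT (Pparg, Ebf1, Klf15, Rxrg and Nr1h3), and the block reversed Cebpa for EWAT against RWAT, to 0.068.

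Log2 fold changes that reversed without TMM were, for Cebpd, -0.21 (BAT against white), -0.21 (IWAT against EWAT and RWAT), -0.055 (BAT against EWAT), -0.069 (BAT against IWAT) and -0.50 (BAT against RWAT), for Cebpb -0.080 (IWAT against EWAT and RWAT) and -0.23 (IWAT against EWAT), for Rxra -0.084 (BAT against IWAT), and for Ebf1 -0.24 (BAT against RWAT) and -0.00092 (IWAT against RWAT). Correlations without TMM reversed to -0.0315 for Cebpb and -0.299 for Cebpd with adipocyte target genes, and to 0.111 for Cebpd with macrophage markers. With a filter of 1 CPM Cebpd reversed to -0.0099 (BAT against RWAT), and with limma-voom Cebpa to 0.10 (EWAT against RWAT).

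Leaving out 1 library reversed 33 uncalled values, and the log2 fold changes with such a reversal had these ranges. For BAT against the white mean the range was -0.058 to 0.43 for Cebpd (reversed without BAT replicate 1). For IWAT against EWAT with RWAT the range was -0.11 to 0.31 for Cebpd (reversed without IWAT replicate 1 or RWAT replicate 2). For BAT against IWAT the range was -0.08 to 0.57 for Pparg (reversed without BAT replicate 1 or IWAT replicate 3), -0.20 to 0.61 for Cebpa (reversed without BAT replicate 1 or BAT replicate 2 or IWAT replicate 3), -0.077 to 1.12 for Cebpb (reversed without BAT replicate 1), -0.11 to 0.39 for Cebpd (reversed without BAT replicate 1), -0.17 to 0.043 for Ebf1 (reversed without BAT replicate 1 or IWAT replicate 1), -0.22 to 0.82 for Klf15 (reversed without BAT replicate 1 or IWAT replicate 3), -0.18 to 0.47 for Rxra (reversed without BAT replicate 1 or IWAT replicate 3), -0.21 to 0.83 for Rxrg (reversed without BAT replicate 1 or IWAT replicate 3). For BAT against RWAT the range was -0.33 to 0.45 for Cebpd (reversed without BAT replicate 1 or RWAT replicate 1 or RWAT replicate 2), -0.026 to 0.50 for Ebf1 (reversed without RWAT replicate 2 or RWAT replicate 3). For IWAT against EWAT the range was -0.15 to 0.46 for Cebpb (reversed without EWAT replicate 1 or IWAT replicate 2). For IWAT against RWAT the range was -0.52 to 0.26 for Cebpd (reversed without RWAT replicate 3). For EWAT against RWAT the range was -1.13 to 0.51 for Pparg (reversed without RWAT replicate 1), -0.67 to 0.90 for Cebpa (reversed without RWAT replicate 1), -0.14 to 0.47 for Cebpb (reversed without EWAT replicate 3 or RWAT replicate 2), -2.16 to 0.69 for Klf15 (reversed without RWAT replicate 1), -0.51 to 0.44 for Rxra (reversed without RWAT replicate 1), -0.53 to 0.50 for Nr1h3 (reversed without RWAT replicate 1). With 3 libraries a depot, differences within the spread between libraries could not be shown.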
